A study of Homo sapiens with 6 samples.

Results

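The genes described are 40 genes of glycolysis and of the response to low oxygen. They were found by gene name among the 58302 genes of the deposited count table, and every name matched 1 gene. They comprise 2 glucose transporters, 15 glycolytic enzymes, 4 lactate dehydrogenase and lactate carrier genes, 2 pyruvate dehydrogenase kinases, 3 PFKFB enzymes, 4 genes of HIF subunits and prolyl hydroxylases, and 10 hypoxia response genes. RNA was sequenced from MDA-MB-231-DR cells, a drug-resistant derivative of MDA-MB-231, a triple-negative breast cancer line, that the authors kept in medium with a low concentration of doxorubicin. The 3 control libraries came from these cells, and the 3 CYT libraries came from the same line treated with cyperotundone (CYT), a compound of sedge. The dose and duration of CYT treatment are not given for these libraries, and neither the parental line nor low oxygen was part of the comparison. Total counts were 17357053, 17770102 and 14050849 in control libraries 1, 2 and 3, and 14106017, 13056270 and 13423683 in CYT libraries 1, 2 and 3. The labels do not say whether the libraries of a group came from separate cultures, so a p-value measures a difference against the spread between libraries.

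Glycolysis splits glucose into pyruvate in the cytosol and yields ATP without oxygen. Lactate dehydrogenase then turns pyruvate into lactate, which leaves the cell through monocarboxylate carriers, and many tumours, triple-negative breast cancers among them, run this route even in air. In low oxygen the prolyl hydroxylases that mark HIF alpha subunits for destruction slow down, and the stabilised HIF factors bind short DNA elements and raise transcription of glucose transporters, glycolytic enzymes, PDK1, VEGFA, CA9 and other genes.

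The libraries numbered 2 stood apart from the others of their group. Across genes, CYT library 2 had a correlation of log2 CPM of 0.905 with CYT library 1 and 0.904 with CYT library 3, against 0.970 between CYT libraries 1 and 3. Control library 2 had correlations of 0.953 and 0.960 with control libraries 1 and 3, against 0.971 between those. The deviation of a gene from its group mean followed its GC content, with a Spearman correlation across 15542 genes of -0.749 in CYT library 2 and -0.571 in control library 2. The same correlation was 0.555 and 0.657 in CYT libraries 1 and 3, and 0.504 and 0.195 in control libraries 1 and 3. Of the 15 glycolytic enzymes, 10 were at their group's lowest in both libraries numbered 2, among them GAPDH, PKM, ALDOA and ENO1. HIF1A, EGLN1, BNIP3, BNIP3L and P4HA1 were at their group's highest in both. With a correction for GC content and gene length in the fit, all 14 genes called below kept their call, and counts of called genes are given with and without these libraries. Correlations across genes are descriptions, since genes are not independent replicates.

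Markers of the cell type were read before the genes themselves. Vimentin (VIM), an intermediate filament of mesenchymal cells, was abundant in all 6 libraries, at 2259, 2375 and 2742 CPM in control and 959, 1119 and 911 CPM in CYT libraries. CPM is the count scaled to library size after TMM normalization, which scales libraries by a trimmed mean of their log ratios. ESR1 and PGR, the hormone receptors that the triple-negative class lacks, had at most 4 and 3 counts in any library. Of 8 markers of mesenchymal triple-negative lines 3 were called lower (37.5%, against 12.9% of all genes tested) and 5 were not called. VIM was lower (log2 fold change -1.30, SE 0.26, edgeR adjusted p = 0.00535), as was SPARC, a matrix protein (log2 fold change -1.48, SE 0.30, edgeR adjusted p = 0.00645). The call of AXL, a receptor kinase (log2 fold change -0.82, SE 0.27, edgeR adjusted p = 0.0444) was lost without control 1 (0.108), control 2 (0.0751), control 3 (0.101), CYT 1 (0.131), CYT 2 (0.0509) and CYT 3 (0.0693). Summed over the 8 markers, the level was 5370, 5104 and 5380 CPM in control and 2623, 2913 and 2870 CPM in CYT libraries.

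Among luminal markers, 5 of 10 passed the filter on low counts and KRT19, a luminal keratin, was the single called gene (log2 fold change -3.45, SE 0.52, edgeR adjusted p = 0.00187). KRT18 and KRT19 made up most of the luminal signal in control libraries, and the 10 genes together summed to 858, 511 and 551 CPM in control and 243, 125 and 265 CPM in CYT libraries. Fibroblast markers summed to at most 19.8 CPM in a library, nearly all of it COL1A1, which was lower after CYT treatment (log2 fold change -2.16, SE 0.36, edgeR adjusted p = 0.00264), while DCN had 0 counts in all 6 libraries. Leukocyte markers summed to 24.1, 8.89 and 7.84 CPM in control and 18.5, 8.47 and 11.5 CPM in CYT libraries, most of it CD68, while CD3E had 0 counts. CD14, with at most 59 counts in a library, was called higher (edgeR adjusted p = 0.0157), a call lost without control 1 (0.0634). Endothelial markers summed to at most 5.01 CPM, CDH5 had at most 4 counts, and KDR, with at most 27 counts, was called higher (edgeR adjusted p = 0.0133). That call was lost without control 1 (0.0579), control 2 (0.0531) or control 3 (0.0700). Their part in the results below was not tested.

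After CYT treatment most of the 40 genes were not called. All 40 genes passed the filter on low counts. At an edgeR adjusted p under 0.05, 5 of 40 were higher after CYT (12.5%, against 15.7% of the 15572 genes tested) and 9 were lower (22.5%, against 12.9%), and 26 were not called. With the further criterion of an absolute log2 fold change over 1, 13 of the 40 were differentially expressed genes (32.5%, against 27.4% of all genes tested). The CYT libraries lay wholly above the control libraries in 8 of the 40 genes (20.0%, against 23.4%) and wholly below them in 14 (35.0%, against 22.7%), and the groups overlapped in 18. The median log2 fold change was -0.33, beside 0.0064 over all genes tested. Without CYT library 1, 2 or 3 the median over the 40 genes was -0.37, -0.19 and -0.40. Without both libraries numbered 2 it was -0.22. The genes called lower were SLC2A1, PFKP, ENO1, ENO2, LDHA, PDK1, PFKFB4, HIF1A and BNIP3, and those called higher were PFKFB2, EPAS1, EGLN3, NDRG1 and ADM.

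With the replicate number as a block, 7 were higher (20.0% of all genes tested) and 11 lower (19.8%). Without CYT library 2, 5 were higher (18.6% of all genes) and 10 lower (17.0%). Without both libraries numbered 2, 5 were higher (21.5% of all genes) and 11 lower (19.6%). Upper-quartile normalization shifted the median over all genes tested to 0.16 and that over the 40 genes to -0.18 on the log2 scale, and it called 6 higher (18.5% of all genes) and 7 lower (10.4%). With the filter at a mean of 5 CPM, which 38 of the 40 genes passed, 6 were higher (12.8% of all genes tested) and 6 lower (12.2%). Without CYT library 1, 5 were higher (12.3% of all genes) and 6 lower (8.48%), and without CYT library 3, 5 were higher (12.2%) and 6 lower (7.63%). The excess of lower over higher calls was thus smaller with upper-quartile normalization, with this filter and without CYT library 1 or 3. The share of the 40 genes called lower was above that of all genes in each of these fits, at 17.5% with upper-quartile normalization, 15.8% of those past the filter at a mean of 5 CPM, and 15.0% without CYT library 1 or CYT library 3. The excess was smaller as well without control library 1 (4 higher and 6 lower) or control library 3 (4 higher and 7 lower). Shares over all genes were not taken for the fits without a control library. Leaving out 1 library moved the log2 fold change by over 1.5 times, or across 0, for 19 of the 26 genes not called and, among the 14 called, for EPAS1 alone.

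**Figure D1:**
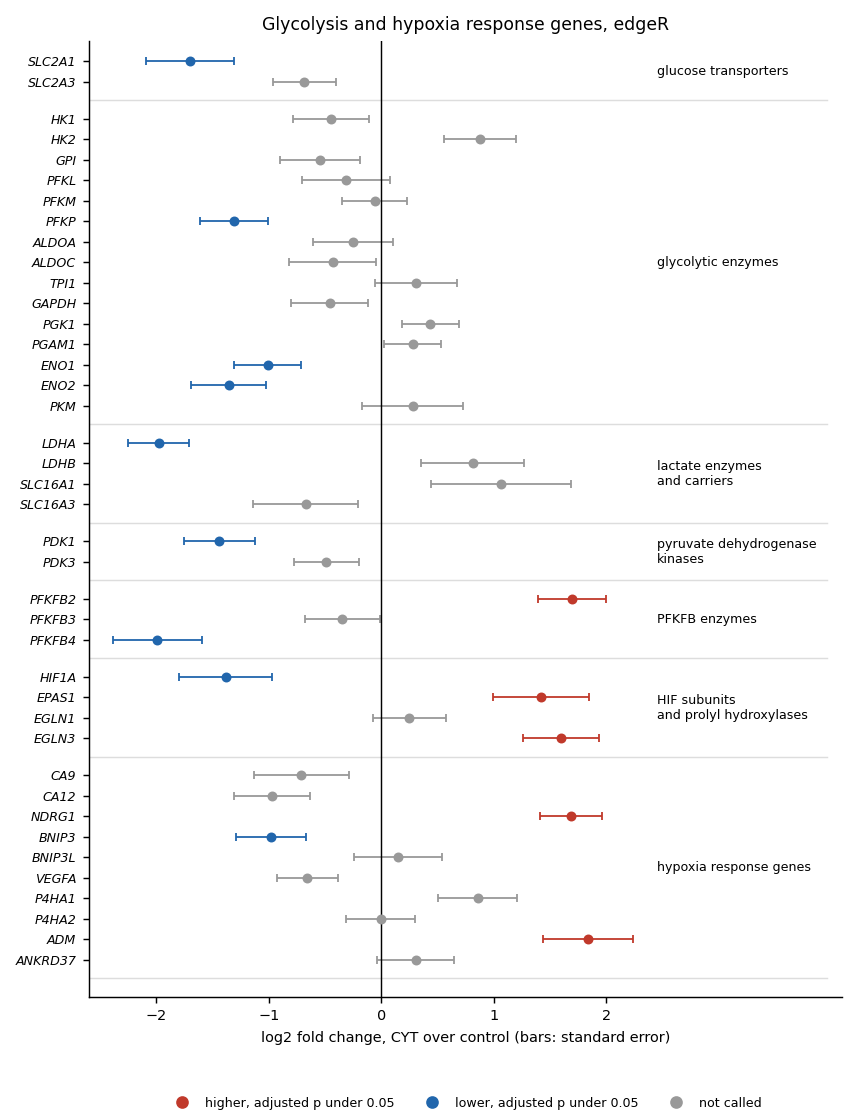
Log2 fold change of CYT against control for each of the 40 genes, grouped by role, with bars of ± SE and colour for the call at an edgeR adjusted p under 0.05. The largest falls are PFKFB4 (-1.99) and LDHA (-1.98), and the largest rise is ADM (1.84).

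The promoters of called genes are shown because HIF factors bind a short element there, and the called genes moved in both directions. RefSeq promoter windows (build GRCh38.p14) were found for 34 of the 40 genes, 61 windows in all, and 250 bases before each start site were searched. PFKFB2, NDRG1, BNIP3L, VEGFA, SLC16A1 and SLC2A3 had no entry. The letters searched were ACGTG and GCGTG, the core of the hypoxia response element, on both strands, so that the palindrome CACGTG counted once on each strand. Either core was present in 36 of the 61 windows (59%), beside 43.2% of 35116 windows of all genes. ACGTG was present in 37.7% of these windows and 18.5% of all, and GCGTG in 32.8% and 32.2%. At least 1 window held a core in 2 of 3 genes called higher, 8 of 9 called lower and 18 of 22 not called. Together these are 82.4% of the genes with a window, against 47.4% of 27305 genes in the table, but with 1.79 windows a gene against 1.29. The stretches printed are the longest runs outside annotated UTRs for the pair with the largest falls and the pair with the largest rises that have such a run, with the cores in capitals.

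PFKFB4, chr3:48556891-48556982, minus strand: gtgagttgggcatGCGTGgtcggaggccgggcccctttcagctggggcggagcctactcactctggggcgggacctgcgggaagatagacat
LDHA, chr11:18394313-18394387, plus strand: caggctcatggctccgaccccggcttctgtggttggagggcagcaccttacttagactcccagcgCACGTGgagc
EGLN3, chr14:33951082-33951324, minus strand: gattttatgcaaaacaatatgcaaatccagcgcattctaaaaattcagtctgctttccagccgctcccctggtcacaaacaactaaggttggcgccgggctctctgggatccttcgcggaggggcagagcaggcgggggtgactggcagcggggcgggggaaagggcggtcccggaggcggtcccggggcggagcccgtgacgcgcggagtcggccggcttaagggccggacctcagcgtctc
EPAS1, chr2:46297157-46297401, plus strand: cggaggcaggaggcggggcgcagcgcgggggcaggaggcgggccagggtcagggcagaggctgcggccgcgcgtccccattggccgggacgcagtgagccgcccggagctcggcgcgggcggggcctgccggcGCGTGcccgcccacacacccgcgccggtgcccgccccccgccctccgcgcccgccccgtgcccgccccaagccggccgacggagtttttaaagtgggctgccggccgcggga
The PFKFB4 stretch of 92 bases holds 1 core. The LDHA stretch of 75 bases holds the palindrome, and the whole 250-base window of LDHA holds 5 matches. The EGLN3 stretch of 243 bases holds 0 and the EPAS1 stretch of 245 bases holds 1. A match is a description of these letters alone.

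Glucose enters these cells through facilitative transporters. SLC2A1 (ENSG00000117394), which encodes the widespread transporter GLUT1, was measured at 214, 124 and 228 CPM in control libraries 1, 2 and 3 and at 56.0, 35.4 and 82.6 CPM in CYT libraries 1, 2 and 3. All CYT libraries lay below all control libraries, and library 2 was the lowest of each group. The mean fell from 189 ± 56.3 to 58.0 ± 23.7 CPM (SD, n = 3), a log2 fold change of -1.70 (SE 0.39, edgeR adjusted p = 0.0110). The call was kept in each of 6 fits without 1 library. SLC2A3, encoding the high-affinity transporter GLUT3, had 33.7, 39.9 and 31.1 CPM in control and 22.6, 20.4 and 22.1 CPM in CYT libraries. Its groups did not overlap either, but its log2 fold change of -0.68 (SE 0.28) had an edgeR adjusted p of 0.0948. That p was 0.0263 with the correction for GC content and length and 0.0435 with that correction and the replicate block, and it reached 0.214 over the 16 alternative fits. Of the 2 transporters 1 was therefore called lower, where 12.9% of all genes tested were, and their median log2 fold change was -1.19.

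Of the 15 glycolytic enzymes 3 were called lower (20.0%, against 12.9% of all genes tested) and 12 were not called, and their median log2 fold change was -0.32. The hexokinases, which trap glucose as glucose 6-phosphate, differed in sign. HK1, the isozyme of most tissues, had 473, 225 and 362 CPM in control and 246, 210 and 323 CPM in CYT libraries. HK2, the insulin-regulated isozyme raised in many tumours, had 66.6, 58.9 and 39.7 CPM in control and 79.6, 125 and 98.7 CPM in CYT libraries. The groups overlapped for HK1 (log2 fold change -0.44, SE 0.34, edgeR adjusted p = 0.355), whereas every CYT library was above every control library for HK2. The log2 fold change of HK2 was 0.88 (SE 0.32, edgeR adjusted p = 0.0687), and with the replicate block its adjusted p was 0.0334. HK2 was called in 6 of the 16 alternative fits, and its adjusted p ran from 0.0131 to 0.257 over them.

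Phosphofructokinase makes the committed step of the pathway. PFKP (ENSG00000067057) is the platelet isozyme and had the most counts of the 3 in every library. It had 818, 521 and 642 CPM in control and 275, 208 and 318 CPM in CYT libraries. The highest CYT library was below the lowest control library. PFKP fell by 1.31 on the log2 scale (SE 0.30, edgeR adjusted p = 0.0111), and the call was kept without each library in turn. PFKM, the muscle isozyme, was at 151 ± 35.3 CPM in control and 144 ± 12.5 CPM in CYT libraries (SD, n = 3). PFKL, the liver isozyme, was at 155 ± 39.8 and 125 ± 55.2 CPM. Both overlapped between the groups, with edgeR adjusted p of 0.896 and 0.577.

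The enzymes of the middle of the pathway were not called. GPI, which converts glucose 6-phosphate to fructose 6-phosphate, and the aldolases ALDOA and ALDOC, which split the sugar, had log2 fold changes of -0.54, -0.25 and -0.43. Without 1 library GPI ran from -0.79 to -0.32, ALDOA from -0.48 to -0.011 and ALDOC from -0.71 to -0.16. TPI1, which interconverts the triose phosphates, PGK1, which makes the first ATP of the pathway, and PGAM1, which moves the phosphate group, had log2 fold changes of 0.31, 0.44 and 0.28, and TPI1 ran from 0.077 to 0.58 without 1 library. The edgeR adjusted p of these 6 genes ran from 0.221 to 0.627. PGK1 had 1768, 1945 and 1614 CPM in control and 2141, 2374 and 2693 CPM in CYT libraries, so its groups were apart although it was not called. GAPDH is the dehydrogenase of the pathway and had the most counts of the 40 genes in every library. It had 11341, 6171 and 10016 CPM in control and 7323, 4227 and 8473 CPM in CYT libraries. Control library 2 lay below CYT libraries 1 and 3, each CYT library lay below the control library of the same number, and the log2 fold change was -0.46 (SE 0.34, edgeR adjusted p = 0.346). It ran from -0.69 without control library 2 to -0.22 without CYT library 2.

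Enolase makes phosphoenolpyruvate, and both of its isozymes among the 40 genes were called lower. ENO1 (ENSG00000074800), the widespread isozyme, had 6121, 3811 and 5037 CPM in control and 2356, 1977 and 3092 CPM in CYT libraries. ENO2 (ENSG00000111674), the neuronal isozyme, had 212, 119 and 141 CPM in control and 67.4, 71.7 and 44.8 CPM in CYT libraries. The groups were apart for both genes. ENO1 fell by 1.01 on the log2 scale (SE 0.30, edgeR adjusted p = 0.0300), and this call was lost without control 1 (0.0812), control 3 (0.0682) or CYT 1 (0.0886), and with a filter at a mean of 5 CPM (0.0530). ENO2 fell by 1.36 (SE 0.34, edgeR adjusted p = 0.0151), and its call was lost without control 1 (0.0633) or CYT 3 (0.0631). PKM, the pyruvate kinase of the last step, spread widely, at 5113, 1732 and 3330 CPM in control and 3994, 2291 and 6043 CPM in CYT libraries. Its groups overlapped (log2 fold change 0.28, SE 0.45, edgeR adjusted p = 0.678), and counts per gene do not separate its M1 and M2 splice forms.

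Lactate dehydrogenase is built from A and B subunits. LDHA (ENSG00000134333), whose subunit favours lactate formation, had 742, 717 and 908 CPM in control and 181, 189 and 229 CPM in CYT libraries. Libraries of a group were close to each other, and the groups were far apart. The mean fell from 789 ± 103 to 200 ± 25.8 CPM (SD, n = 3), a log2 fold change of -1.98 (SE 0.27, edgeR adjusted p = 0.00132) that kept its call without each library in turn. LDHB, whose subunit favours the return of lactate to pyruvate, had 529, 885 and 1024 CPM in control and 797, 2511 and 972 CPM in CYT libraries. CYT library 2 was far above the rest and the groups overlapped (log2 fold change 0.81, SE 0.46, edgeR adjusted p = 0.209). Without CYT library 2 the log2 fold change of LDHB was 0.11 (edgeR adjusted p = 0.820).

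The lactate carriers were not called. SLC16A3, encoding the exporter MCT4, had 314, 327 and 351 CPM in control and 263, 68.5 and 291 CPM in CYT libraries. All CYT libraries were below control, CYT library 2 by far the most (log2 fold change -0.67, SE 0.47, edgeR adjusted p = 0.311, and -0.26 without CYT library 2). SLC16A1, encoding MCT1, was close to the detection limit, with 21, 17 and 8 counts in control and 15, 52 and 14 counts in CYT libraries (log2 fold change 1.07, SE 0.62, edgeR adjusted p = 0.227). Without CYT library 2 the log2 fold change of SLC16A1 was 0.22 (edgeR adjusted p = 0.789). Over the 4 genes of lactate formation and transport 1 was called lower, where 12.9% of all genes tested were, and 3 were not called.

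Pyruvate dehydrogenase kinases inactivate the enzyme complex that feeds pyruvate into mitochondria. PDK1 (ENSG00000152256), the HIF-induced kinase, had 14.1, 18.2 and 16.6 CPM in control and 6.77, 6.05 and 5.16 CPM in CYT libraries. The groups did not overlap, and the log2 fold change was -1.44 (SE 0.32, edgeR adjusted p = 0.0086), kept without each library in turn. PDK3 had 16.4, 18.2 and 15.7 CPM in control and 12.8, 12.2 and 10.9 CPM in CYT libraries. Its groups were apart as well, with a log2 fold change of -0.49 (SE 0.29) and an edgeR adjusted p of 0.238. Of the 2 kinases 1 was called lower, where edgeR called 12.9% of all genes tested lower, and the median log2 fold change was -0.97.

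**Figure D2:**
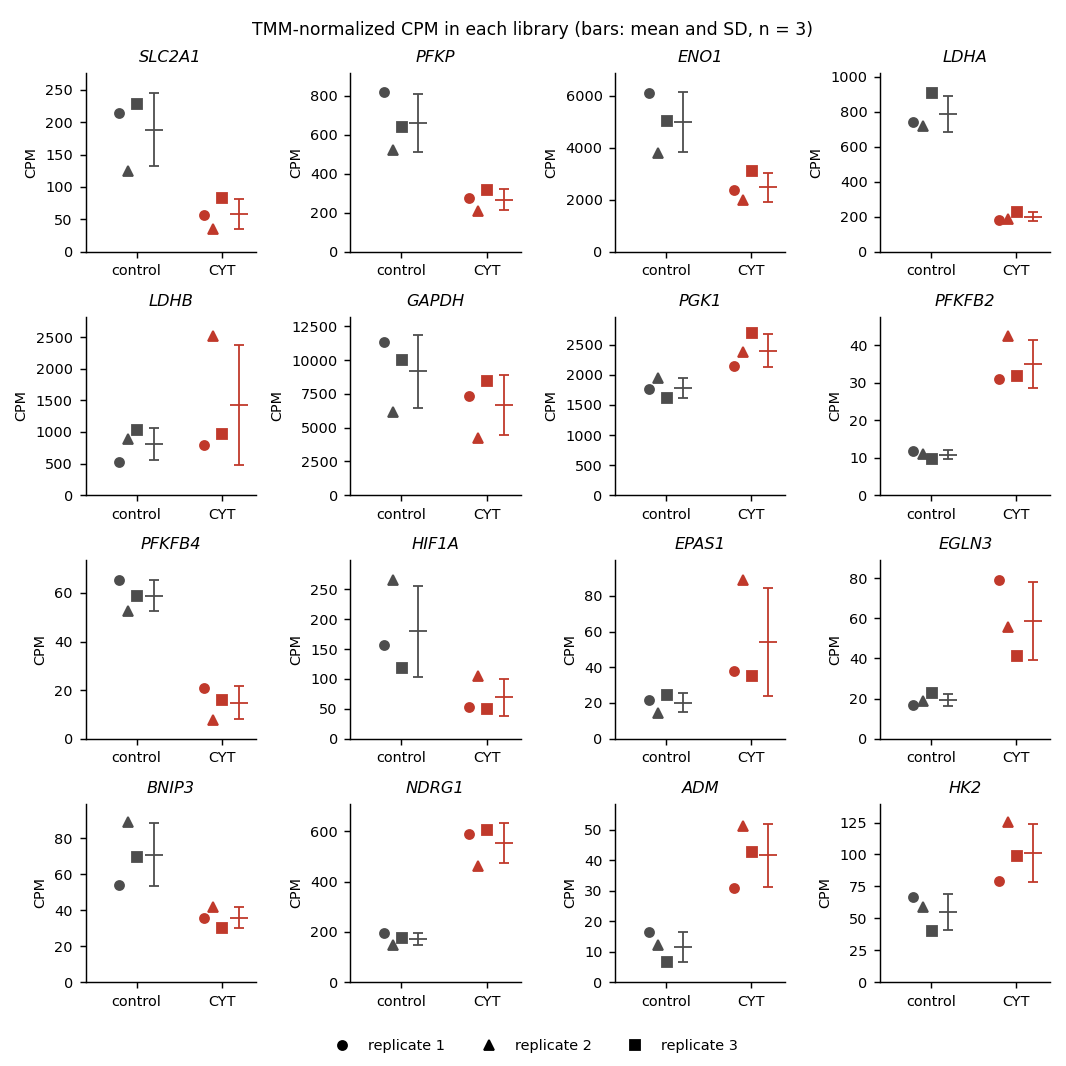
CPM of 16 of the genes in each control and CYT library, with a marker for each replicate, on linear axes from 0, and bars for the mean and SD (n = 3). The CYT libraries of LDHA sit between 181 and 229 CPM, below control libraries of 717 to 908 CPM, and those of NDRG1 sit between 461 and 607 CPM, above control libraries of 147 to 194 CPM.

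PFKFB enzymes make and remove fructose 2,6-bisphosphate, the activator of phosphofructokinase, and their genes moved in opposite directions. PFKFB4 (ENSG00000114268), a hypoxia-inducible form, had 65.2, 52.6 and 58.9 CPM in control and 20.9, 7.47 and 16.0 CPM in CYT libraries. PFKFB2 (ENSG00000123836), the heart form, had 11.9, 10.9 and 9.71 CPM in control and 31.0, 42.4 and 31.7 CPM in CYT libraries. Neither gene had overlapping groups, and CYT library 2 was the most extreme for both. PFKFB4 fell by 1.99 on the log2 scale (SE 0.40, edgeR adjusted p = 0.00557), and PFKFB2 rose by 1.69 (SE 0.30, edgeR adjusted p = 0.00356). Both calls were kept without each library in turn. PFKFB3, the form with the strongest kinase activity, had 50.6, 47.2 and 37.5 CPM in control and 26.2, 50.3 and 29.9 CPM in CYT libraries. CYT library 2 reached the control range, and the gene was not called (log2 fold change -0.35, SE 0.33, edgeR adjusted p = 0.472). Without CYT library 2 its log2 fold change was -0.69 (edgeR adjusted p = 0.0618), and with the correction for GC content and length it was -0.045. Thus 1 of the 3 was higher and 1 lower, where 15.7 and 12.9% of all genes tested were, around a median log2 fold change of -0.35.

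The alpha subunits of HIF differed in direction. HIF1A (ENSG00000100644), the oxygen-regulated subunit of HIF-1, had 157, 265 and 118 CPM in control and 53.4, 105 and 48.9 CPM in CYT libraries. EPAS1 (ENSG00000116016), which encodes HIF-2 alpha, had 21.6, 14.2 and 24.7 CPM in control and 38.2, 88.8 and 35.0 CPM in CYT libraries. Library 2 was the highest of each group for HIF1A, and CYT library 2 was the highest for EPAS1. The groups were apart for both genes, although the lowest control library of HIF1A (118 CPM) was near the highest CYT library (105 CPM).

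HIF1A fell by 1.39 on the log2 scale (SE 0.42, edgeR adjusted p = 0.0332). That call was lost without control 1 (0.0614), control 2 (0.104), CYT 1 (0.108) or CYT 3 (0.116), and with upper-quartile normalization (0.0516) or a filter at a mean of 5 CPM (0.0512). EPAS1 rose by 1.42 (SE 0.43, edgeR adjusted p = 0.0326), and its call was lost without control 1 (0.0886), control 2 (0.0976) or control 3 (0.0732), and with limma on log2 FPKM at pseudocounts of 1 (0.0698) and 0.1 (0.0562). Without CYT library 2 its log2 fold change was 0.86 (edgeR adjusted p = 0.0456), and without both libraries numbered 2 it was 0.69 (edgeR adjusted p = 0.0346). These are RNA levels, and HIF alpha subunits are regulated mainly as proteins, which were not measured here.

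The prolyl hydroxylases mark HIF alpha subunits for degradation, and EGLN3 is itself induced by HIF. EGLN3 (ENSG00000129521) had 16.9, 18.7 and 22.6 CPM in control and 79.3, 55.7 and 41.0 CPM in CYT libraries. The lowest CYT library was above the highest control library, and EGLN3 rose by 1.60 on the log2 scale (SE 0.34, edgeR adjusted p = 0.00722), a call kept without each library in turn. EGLN1, the main oxygen sensor, had 35.8, 49.8 and 38.8 CPM in control and 43.8, 66.2 and 37.8 CPM in CYT libraries. Its groups overlapped (log2 fold change 0.25, SE 0.32, edgeR adjusted p = 0.595). Of these 4 genes of HIF subunits and prolyl hydroxylases 2 were higher and 1 lower, where edgeR called 15.7% of all genes tested higher and 12.9% lower, with a median log2 fold change of 0.84.

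Of the 10 hypoxia response genes 2 were higher (20.0%, against 15.7% of all genes tested) and 1 lower (10%, against 12.9%), with a median log2 fold change of 0.071. In this fit, which has no block, these shares are near those of all genes. With the replicate block P4HA1 was also called higher, and CA12 and VEGFA lower. That fit called 20.0% of all genes tested higher and 19.8% lower. CA12 and VEGFA were also called lower without both libraries numbered 2, where 19.6% of all genes were. NDRG1 (ENSG00000104419), a stress-induced gene that restrains metastasis in several tumours, had 194, 147 and 175 CPM in control and 591, 461 and 607 CPM in CYT libraries. ADM (ENSG00000148926), which encodes the vasodilator peptide adrenomedullin, had 16.3, 12.0 and 6.47 CPM in control and 30.8, 51.2 and 42.7 CPM in CYT libraries. The groups were apart for both. NDRG1 rose by 1.68 on the log2 scale (SE 0.28, edgeR adjusted p = 0.00256), from 172 ± 23.7 to 553 ± 80.1 CPM (SD, n = 3). ADM rose by 1.84 (SE 0.40, edgeR adjusted p = 0.00836), and both calls were kept without each library in turn.

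BNIP3 and BNIP3L mark mitochondria for removal by mitophagy. BNIP3 (ENSG00000176171) had 53.9, 89.0 and 69.6 CPM in control and 35.8, 41.9 and 29.9 CPM in CYT libraries. The groups were apart, and BNIP3 fell by 0.98 on the log2 scale (SE 0.31, edgeR adjusted p = 0.0406), just short of the fold criterion for differential expression. The call was lost without control 2 (0.120), control 3 (0.105), CYT 1 (0.109) or CYT 3 (0.144). Upper-quartile normalization (0.0764), a filter at a mean of 5 CPM (0.0656) and limma on log2 FPKM (0.0649 and 0.0647 at pseudocounts of 1 and 0.1) lost it as well. BNIP3L had 20.8, 31.6 and 29 CPM in control and 22.7, 47.4 and 20.0 CPM in CYT libraries. These groups overlapped, with an edgeR adjusted p of 0.807.

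The carbonic anhydrases of the cell surface, which buffer the acid made by glycolysis, were not called. CA9, the usual hypoxia marker of tumours, had 42, 63 and 71 counts in control and 30, 28 and 33 counts in CYT libraries. At 2.60, 3.35 and 5.10 CPM in control and 2.12, 1.99 and 2.62 CPM in CYT libraries, its groups overlapped narrowly (log2 fold change -0.71, SE 0.42, edgeR adjusted p = 0.234). CA12 had 15.0, 11.8 and 19.0 CPM in control and 6.77, 9.40 and 7.15 CPM in CYT libraries. Its groups were apart, and its log2 fold change of -0.97 (SE 0.33) had an edgeR adjusted p of 0.0548. That p was 0.0480 without control 2, 0.0245 without CYT 2, 0.0102 without both libraries numbered 2 and 0.0346 with the replicate block. CA12 was called in 7 of the 16 alternative fits, with an adjusted p of at most 0.182.

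VEGFA, the growth factor of blood vessels, had 58.7, 56.6 and 67.1 CPM in control and 39.6, 35.8 and 40.1 CPM in CYT libraries. The libraries of each group lay close together and the groups were apart, with a log2 fold change of -0.66 (SE 0.27, edgeR adjusted p = 0.0970). Its adjusted p was 0.0493 with the replicate block and 0.0425 without both libraries numbered 2, and at most 0.258 over the 16 alternative fits. With the correction for GC content and length its log2 fold change was -0.37 (adjusted p = 0.182). With that correction and the block it was -0.35 (adjusted p = 0.165). P4HA1, a collagen prolyl hydroxylase subunit, had 37.4, 59.7 and 56.3 CPM in control and 81.3, 131 and 65.5 CPM in CYT libraries. All its CYT libraries were above control (log2 fold change 0.86, SE 0.35, edgeR adjusted p = 0.0974, and 0.0403 with the replicate block), and the adjusted p ran from 0.0159 to 0.289 over the alternative fits. Without CYT library 2 the log2 fold change of P4HA1 was 0.51 (edgeR adjusted p = 0.195). P4HA2, the paralogous subunit, was at 49.7 ± 12.2 CPM in control and 49.5 ± 7.94 CPM in CYT libraries (SD, n = 3), and ANKRD37, a small HIF target, was at 10.5 ± 2.30 and 13 ± 3.31 CPM. Both overlapped between the groups, with edgeR adjusted p of 0.990 and 0.537.

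At several steps paralogous genes encode the same activity. The share of each, among those of its step in the 40 genes, was taken from the deposited FPKM. These divide counts by a length for each gene that was the same in all libraries. For LDHA, GAPDH, TPI1, ADM and VEGFA the length implied by counts and FPKM was longer than the locus. How it was set is not stated. Shares of a gene can be compared between libraries, but a share of FPKM cannot be read as a share of transcripts. HK2 made up 16.7, 27.1 and 13.5% of hexokinase FPKM in control and 31.5, 45.8 and 30.3% in CYT libraries. The CYT libraries were all higher, and the mean share went from 19.1 ± 7.13% to 35.9 ± 8.66% (SD, n = 3). PFKP made up 81.1, 80.0 and 82.5% of phosphofructokinase FPKM in control and 67.5, 65.4 and 65.9% in CYT libraries. The CYT libraries were all lower, and the mean share went from 81.2 ± 1.27% to 66.3 ± 1.07% (SD, n = 3), while the share of PFKM went from 10.4 ± 1.86% to 20.5 ± 4.36%. LDHA made up 27.6, 18.1 and 19.5% of lactate dehydrogenase FPKM in control and 5.83, 2.01 and 6.04% in CYT libraries. CYT library 2 was lowest, and the mean share went from 21.7 ± 5.17% to 4.63 ± 2.27% (SD, n = 3). The size of these shares depends on the lengths used. In raw counts LDHA had 11970, 13475 and 12625 and LDHB 8535, 16616 and 14246 in control libraries. In CYT libraries LDHA had 2570, 2655 and 2885 counts and LDHB 11306, 35278 and 12234.

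In raw counts, which are not divided by length, the differences between group means were -18.5 percentage points for PFKP and -35.2 for LDHA, beside -14.9 and -17.1 in FPKM. The groups overlapped for the shares of ALDOC (21.7 ± 1.83% and 19.4 ± 2.66%), ENO2 (1.72 ± 0.177% and 1.46 ± 0.603%), SLC2A3 (10.7 ± 4.64% and 19.5 ± 5.89%) and SLC16A1 (0.538 ± 0.236% and 3.60 ± 4.95%). Between libraries of the same number, the share of SLC2A3 rose each time, from 8.53 to 19.3%, from 16.0 to 25.4% and from 7.49 to 13.7%. Differences between group means depended on single libraries. That of ENO2 was -0.265 percentage points, 0.062 without CYT library 3 and -0.532 without CYT library 2. That of ALDOC was -2.26, and it ran from -3.78 without CYT library 1 to -1.22 without control library 3. For SLC2A3 it was 8.79, and 5.81 without CYT library 2. For SLC16A1, CYT library 2 alone was at 9.31%, and the difference between group means was 0.201 without it and 3.06 with it. In raw counts the differences were -0.947 percentage points for ALDOC, -0.464 for ENO2, 12.2 for SLC2A3 and 1.69 for SLC16A1. With 3 libraries against 3, an exact two-sided permutation test of a share cannot give a p below 0.1, so none was made.

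**Figure D3:**
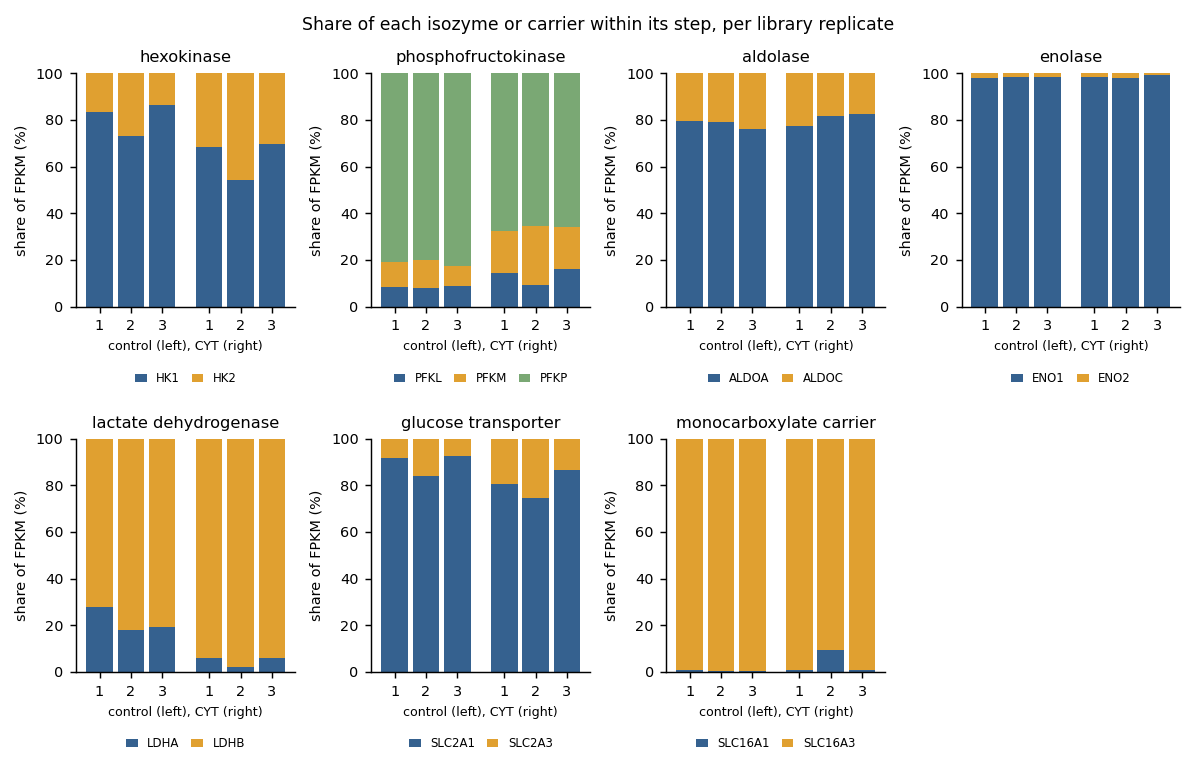
Share of each isozyme in the summed FPKM of its step, in percent, for each control and CYT library. The shares of HK2, PFKP and LDHA do not overlap between groups, and LDHA is at 18.1 to 27.6% in control and 2.01 to 6.04% in CYT libraries.

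GAPDH is both a glycolytic enzyme and the internal control to which the authors related their qPCR values. Their primer pair defines an amplicon of 101 bases in the GAPDH transcript, which is printed because those values are relative to it. It spans the end of exon 7 (chr12:6537362-6537390) and the start of exon 8 (chr12:6537584-6537655), plus strand, within the coding sequence (GRCh38, GENCODE 29), and the primer sites of 22 and 19 bases are in capitals.
GAPDH amplicon: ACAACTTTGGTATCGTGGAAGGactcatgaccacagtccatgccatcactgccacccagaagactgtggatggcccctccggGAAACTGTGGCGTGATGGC
Both primers also matched GAPDHP1, a processed pseudogene without introns, exactly. GAPDHP1 had 2829, 5591 and 3772 counts in control and 3569, 3909 and 4579 counts in CYT libraries, which is 1.55, 4.82 and 2.71% and 3.44, 6.58 and 4.29% of the GAPDH counts. Each library numbered 2 had the highest percentage of its group. The groups overlapped, and each CYT library was above the control library of the same number. Whether these reads came from GAPDH itself cannot be told from counts per gene.

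SRSF1, the splicing factor that the authors took forward, was set against GAPDH and 15 further genes in common use as qPCR references. It had 11.7, 22.7 and 12.9 counts per 1000 GAPDH counts in control and 2.47, 6.23 and 2.49 in CYT libraries. Library 2 was the highest of each group, and the groups did not overlap. The log2 difference was -2.16 against GAPDH and ranged over the 16 references from -5.87 to -0.84, with a median of -2.65 and all 16 negative.

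Of the 16 references 1 was called higher (6.25%, against 15.7% of all genes tested) and 2 lower (12.5%, against 12.9%), with a median log2 fold change of 0.04. ACTB, encoding cytoplasmic actin, gave the smallest difference and was itself lower, at 7072, 4257 and 3017 CPM in control and 1290, 1037 and 1630 CPM in CYT libraries (log2 fold change -1.86, SE 0.36, edgeR adjusted p = 0.00523). POLR2A, the largest subunit of RNA polymerase II, gave the largest and was higher, at 215, 140 and 139 CPM in control and 1885, 858 and 2138 CPM in CYT libraries (log2 fold change 3.31, SE 0.41, edgeR adjusted p = 0.000909). Groups were apart for both, and both calls were kept without each library in turn. IPO8, a nuclear import factor, was lower (log2 fold change -1.43, SE 0.33, edgeR adjusted p = 0.0112), a call lost without CYT 3 (0.0509). The glycolytic reference PGK1 gave a log2 difference of -3.07 for SRSF1.

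**Figure D4:**
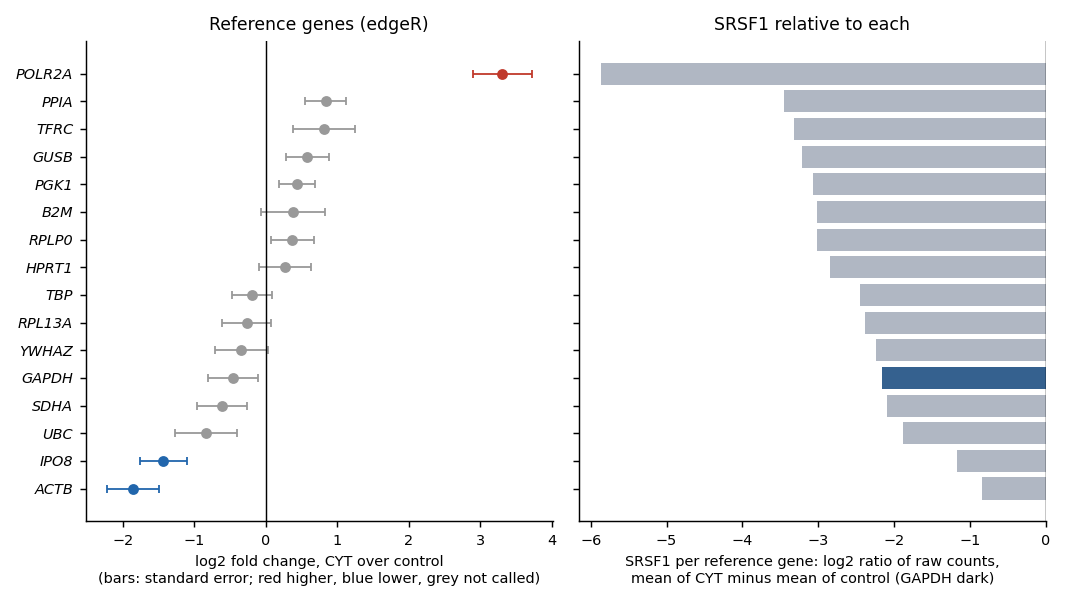
Left, log2 fold change of 16 qPCR reference genes between CYT and control with bars of ± SE, coloured by the edgeR call; right, log2 difference of SRSF1 relative to each. All 16 differences of SRSF1 are negative, from -5.87 with POLR2A to -0.84 with ACTB, and GAPDH gives -2.16.

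The wider HIF machinery was read from a list of 13 further regulators, 12 of which passed the filter on low counts, with 1 higher, 1 lower (8.33% each, against 15.7 and 12.9% of all genes tested) and a median log2 fold change of 0.078. ARNT, the constitutive beta subunit that both HIF-1 and HIF-2 need, had 41.0, 39.5 and 29 CPM in control and 12.6, 10.4 and 7.47 CPM in CYT libraries. The groups were far apart, and ARNT fell by 1.84 on the log2 scale (SE 0.33, edgeR adjusted p = 0.00369), kept without each library in turn. RBX1, the RING subunit of the VHL ubiquitin ligase, rose by 0.98 (SE 0.30, edgeR adjusted p = 0.0352). That call was lost without control 1 (0.120), control 3 (0.145), CYT 1 (0.0558) or CYT 3 (0.0737). VHL, EGLN2 and the asparaginyl hydroxylase HIF1AN were not called, and HIF3A had at most 3 counts in any library.

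A list of 40 further hypoxia-induced genes had 38 past the filter on low counts, of which 7 were higher (18.4%, against 15.7% of all genes tested with edgeR) and 2 lower (5.26%, against 12.9%), with a median log2 fold change of 0.11. The share called higher was near that of all genes, and the share called lower was below it. BHLHE41 and BHLHE40 are paralogous HIF-induced repressors of the circadian clock, and they moved in opposite directions. BHLHE41 had 1.36, 1.17 and 1.73 CPM in control and 8.68, 10.2 and 8.74 CPM in CYT libraries. BHLHE40 had 109, 82.3 and 107 CPM in control and 22.4, 13.2 and 17.6 CPM in CYT libraries. Neither had overlapping groups: BHLHE41 rose by 2.70 on the log2 scale (SE 0.37, edgeR adjusted p = 0.0013) and BHLHE40 fell by 2.49 (SE 0.33, edgeR adjusted p = 0.00111).

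The next largest rises of that list were KLHL24, a ubiquitin ligase adaptor (log2 fold change 2.67, SE 0.44, edgeR adjusted p = 0.00263), and KDM5B, an oxygen-dependent histone demethylase (1.63, SE 0.30, edgeR adjusted p = 0.00383). The other gene that fell was ADORA2B, an adenosine receptor, at 36.6, 47.0 and 41.1 CPM in control and 11.2, 9.11 and 9.93 CPM in CYT libraries (log2 fold change -2.04, SE 0.30, edgeR adjusted p = 0.00159). The calls of these 5 genes were kept without each library in turn. In bulk RNA, fewer cells with a transcript and less RNA per cell cannot be told apart.

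**Figure D5:**
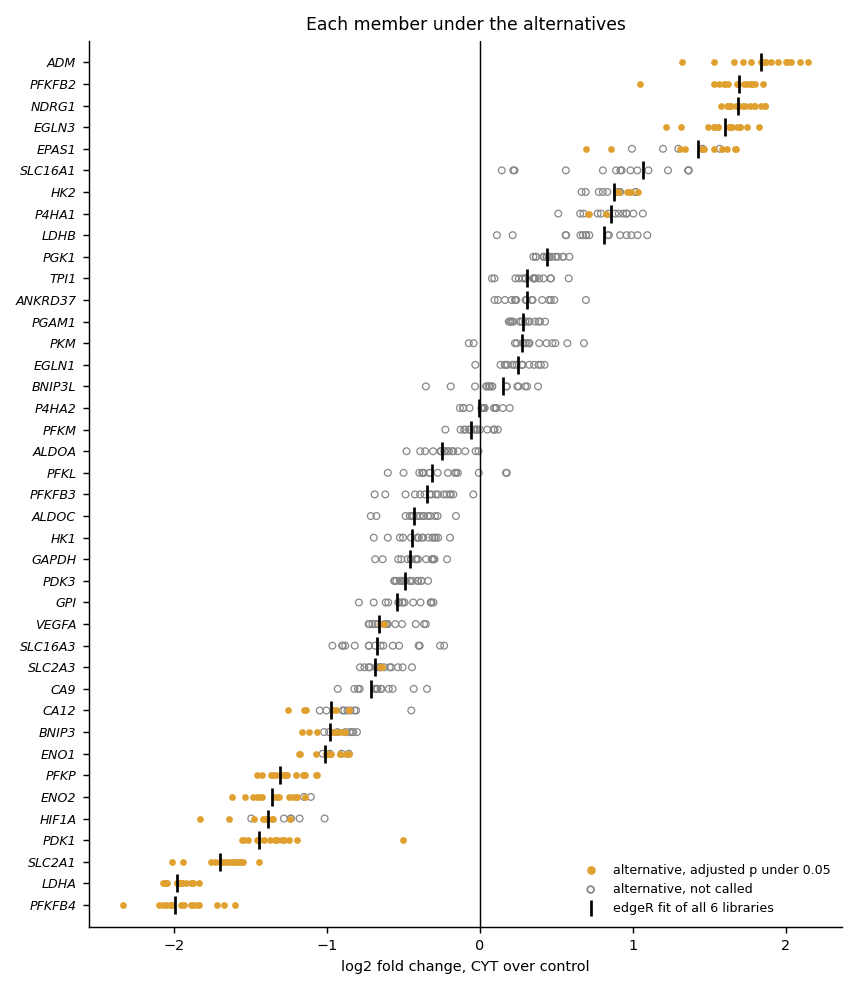
Log2 fold change of each of the 40 genes in the edgeR fit of all 6 libraries (vertical ticks) and in the 16 alternative fits (filled points where the adjusted p is under 0.05, open points where it is not). SLC2A1, PFKP, LDHA, PDK1, PFKFB2, PFKFB4, EGLN3, NDRG1 and ADM are filled throughout, and ENO1, ENO2, HIF1A, EPAS1 and BNIP3 in part.

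Across the 16 alternative fits, 9 of the 14 called genes kept their call in all, and 0 changed sign. Of the 26 genes not called, 21 were called in 0 alternatives and 5 in at least 1, namely SLC2A3, HK2, CA12, VEGFA and P4HA1.

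Reads of near-identical copies and of overlapping genes could have been assigned to either gene, since neither the counting program nor the strand setting is stated. Pseudogenes named after TPI1 held 10.1% of its counts in both groups, and those of GAPDH held 2.81% in control and 4.52% in CYT libraries. For LDHA the figures were 5.69 and 6.87%, and for BNIP3 8.77 and 7.54%. A gene overlapping on either strand was annotated for 30 of the 40 genes, and for 14 of them its counts came to over 5% of those of the gene in a group, ENO2, PDK1, PFKFB2, PFKFB4, HIF1A and EGLN3 among them. EGLN3 shares its strand with SPTSSA, which had 1163, 1839 and 947 counts in control and 779, 1204 and 573 counts in CYT libraries, against 272, 351 and 314 and 1124, 782 and 516 counts for EGLN3 itself. SPTSSA itself was not called (edgeR adjusted p = 0.456). YOD1, on the strand opposite PFKFB2, had 140, 505 and 146 counts in control and 225, 607 and 135 counts in CYT libraries, against 192, 204 and 135 and 439, 596 and 399 counts for PFKFB2. Library 2 was the highest of each group for YOD1, and YOD1 was not called (edgeR adjusted p = 0.478). CSNK1D, opposite SLC16A3, had 2333, 2086 and 2076 counts in control and 3144, 1624 and 2826 counts in CYT libraries.

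Some of the other overlapping genes that came to over 5% were not called. Among them were ARHGEF39, opposite CA9 (edgeR adjusted p = 0.961), and UCN2, on the strand of PFKFB4 (edgeR adjusted p = 0.893). UCN2 went from 5.08 to 23.6% of the PFKFB4 counts, with 18, 64 and 63 counts in control and 80, 0 and 62 counts in CYT libraries. AC078883.1, opposite PDK1, went from 6.62 to 32.5% of the PDK1 counts and was not called (edgeR adjusted p = 0.230). The part of these reads in the counts of PFKFB4 and PDK1 was not tested. Those over 5% that were called were each on the strand opposite. UFSP2, opposite ANKRD37, went from 117 to 31.8% of its counts (log2 fold change -1.59, edgeR adjusted p = 0.0130), and PDLIM4, opposite P4HA2, from 220 to 77.2% (log2 fold change -1.54, edgeR adjusted p = 0.0194). AC019069.1, opposite HK2, went from 2.71 to 7.24% (log2 fold change 2.22, edgeR adjusted p = 0.00651), and SDAD1P1, opposite BNIP3L, from 0.375 to 6.53% (log2 fold change 4.13, edgeR adjusted p = 0.00987). HIF1A-AS1, opposite HIF1A, went from 0.0327 to 6.30% (edgeR adjusted p = 0.00123). Of the genes they overlap only HIF1A was called, and the part of these reads in its counts was not tested.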

How the data were processed

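The libraries were made from mRNA of the cells and sequenced on an Illumina NovaSeq instrument by the authors, who removed low-quality reads and aligned the rest with Hisat2, and the submitters' notes name FastQC 0.12.1 and hg38. The authors deposited raw counts per gene and FPKM from Stringtie. The counts were fitted with edgeR 4.0.16 in R 4.3.3 (TMM, filterByExpr with minimum count 10, quasi-likelihood test, Benjamini-Hochberg adjustment over 15572 genes), and shares used FPKM. All 40 members are named, as are SRSF1, the reference genes and, from each further list, up to 3 called genes with the largest rise and 3 with the largest fall. From the further lists 2 genes are not reported here and were left out of the counts and sums. Members and lists were chosen with earlier results of these data known. Alternatives were DESeq2 1.42.0, upper-quartile normalization, other filters, limma 3.58.1 on log2 FPKM with pseudocounts of 1 and 0.1, a replicate block, a correction for GC content and length with and without the block, and leaving out each library. Leaving out both libraries numbered 2 was chosen after seeing the data. Deviations of same-numbered libraries from group means correlated across genes at 0.188, 0.458 and 0.124, each over 0.1. The numbers of the labels were therefore taken as pairs in the replicate block and where same-numbered libraries are compared. The fit behind the calls had no block. Control 1 with CYT 3 (0.303) and control 3 with CYT 1 (0.201) correlated more than the same-numbered libraries 1 and 3, so the values do not settle how these libraries pair.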

Additional observations from a re-analysis of the deposited data

How the results depend on the processing

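Over the 16 alternatives, 4 to 7 members were called higher, 6 to 11 lower and 10 to 14 were differentially expressed genes, beside 5, 9 and 13. The replicate block gave 7 higher, 11 lower and 13 differentially expressed, adding HK2, CA12, VEGFA and P4HA1, and changed no other call. Sign changed for 6 uncalled genes, and the cause was not tested. PFKL had a log2 fold change of 0.17 with the GC and length correction and 0.17 with it and the block. PFKM had 0.094 with upper-quartile normalization, 0.046 with the 5 CPM filter, 0.088 with the GC correction, 0.093 with it and the block, and -0.23 to 0.12 without 1 library. Without 1 library PKM ran from -0.074 to 0.68, BNIP3L from -0.35 to 0.38 and EGLN1 from -0.032 to 0.42. BNIP3L was at -0.19 without both libraries numbered 2. P4HA2 had 0.029 with DESeq2, 0.15 with upper-quartile normalization, 0.10 with the 5 CPM filter, 0.021 and 0.028 with limma and pseudocounts of 1 and 0.1, 0.0079 with the replicate block, 0.11 with the GC correction, 0.11 with it and the block, 0.027 without both libraries numbered 2, and -0.13 to 0.19 without 1 library. With limma at a pseudocount of 1, which understates changes of low genes, PDK1 was at -0.51 and PFKFB2 at 1.05, both still called. In raw counts the share differences were -18.5 for PFKP and -35.2 for LDHA. SRSF1 relative to GAPDH was -2.16, and it was -0.84 with ACTB, -3.02 with B2M, -3.22 with GUSB, -1.18 with IPO8, -3.07 with PGK1, -5.87 with POLR2A, -3.46 with PPIA, -3.01 with RPLP0 and -3.33 with TFRC. That filter, a minimum mean of 5 CPM, left out SLC16A1 and CA9, for which depth limits precision.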

Other observations

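In the pentose phosphate pathway, 1 of 7 genes was higher and 1 lower (14.3% each, median log2 fold change -0.040), where edgeR called 15.7% of all genes tested higher and 12.9% lower. These shares are near those of all genes. TKT, the transketolase that returns pentoses to glycolysis, had 1068, 492 and 756 CPM in control and 238, 134 and 284 CPM in CYT libraries. The groups were apart (log2 fold change -1.82, SE 0.39, edgeR adjusted p = 0.00799), and the call was kept without each library in turn. RPIA, the ribose 5-phosphate isomerase, was higher (log2 fold change 1.01, SE 0.30, edgeR adjusted p = 0.0301), a call lost without control 1 (0.120), control 2 (0.0562), control 3 (0.117) or CYT 3 (0.0718).

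At the entry of pyruvate into mitochondria, 1 of 13 genes was higher and 1 lower (7.69% each, median log2 fold change 0.20), both below the shares over all genes. MPC2, a subunit of the mitochondrial pyruvate carrier, was higher (log2 fold change 1.09, SE 0.36, edgeR adjusted p = 0.0486), and the call was lost without control 1 (0.147), control 2 (0.0825), control 3 (0.0764), CYT 1 (0.0979), CYT 2 (0.0516) and CYT 3 (0.109). DLAT, the acetyltransferase of the dehydrogenase complex, was lower (log2 fold change -1.10, SE 0.34, edgeR adjusted p = 0.0373), a call lost without control 2 (0.101), control 3 (0.104), CYT 1 (0.123) or CYT 3 (0.127).

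Of 32 other genes of glycolysis and gluconeogenesis, 17 passed the filter on low counts, with 3 higher (17.6%, near the share over all genes), 14 not called and a median log2 fold change of 0.46. ENO3, the muscle enolase, had 10.7, 8.47 and 8.12 CPM in control and 28.1, 15.5 and 28.2 CPM in CYT libraries. Its groups were apart (log2 fold change 1.40, SE 0.35, edgeR adjusted p = 0.0156), and its call was lost without control 3 (0.0738), CYT 1 (0.0568) or CYT 3 (0.0542). PCK2, the mitochondrial phosphoenolpyruvate carboxykinase, was higher (log2 fold change 1.28, SE 0.37, edgeR adjusted p = 0.0284), lost without control 1 (0.0686), control 2 (0.0808), control 3 (0.108), CYT 1 (0.112) or CYT 3 (0.0819). SLC2A13, a proton myo-inositol carrier of the glucose transporter family, was higher (log2 fold change 1.28, SE 0.39, edgeR adjusted p = 0.0366), lost without control 1 (0.133), control 3 (0.130), CYT 1 (0.0553) or CYT 2 (0.0694).

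HIF1A-AS1, an RNA annotated on the strand opposite HIF1A, had 0, 3 and 0 counts in control and 64, 70 and 45 counts in CYT libraries, while HIF1A was lower. It was chosen after its values were seen, and reads of the strands could not be told apart if the counting ignored strand.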
